A study of Mus musculus with 9 samples.

Results

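The NRF2 antioxidant target genes examined here were 10 genes, *Slc7a11*, *Gclc*, *Gclm*, *Gsr*, *Txnrd1*, *Srxn1*, *Hmox1*, *Nqo1*, *Me1* and *Osgin1*, out of the 24318 genes listed in each of 2 deposited RNA-seq tables. They were chosen by symbol, with earlier results of these data known, as widely used target genes of the transcription factor NRF2. All 10 were found in both tables. The RNA came from N2A (Neuro2A) cells, a mouse neuroblastoma line, transfected with a scramble siRNA, with an siRNA against *Exosc3* (siEXOSC3) or with an siRNA against *Ddx1* (siDDX1), with 3 libraries for each. EXOSC3 is a cap subunit of the RNA exosome, the complex that processes and degrades RNA from its 3′ end. DDX1 is a putative RNA helicase of the DEAD-box family. The scramble cells are labelled WT, the other cells by their knockdown, and all 9 libraries are labelled untreated apart from the siRNA. The study's methods describe transfection of the siRNAs with Lipofectamine, so every group, scramble included, had been through transfection. Values are FPKM, that is fragment numbers scaled for transcript length and library depth. One table held the scramble and siEXOSC3 libraries and the other the same scramble libraries with the siDDX1 libraries, so both comparisons share their controls. All groups come from a single cell line, and the labels do not say which of the study's siRNAs against *Exosc3* was used.

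NRF2, encoded by *Nfe2l2*, is held at a low level in unstressed cells because KEAP1 binds it and presents it to a CUL3 ubiquitin ligase for degradation. Oxidants and electrophiles modify KEAP1, and NRF2 then accumulates, pairs with small MAF proteins and binds antioxidant response elements near its target genes. BACH1 occupies many of the same elements as a repressor, with *Hmox1* as its best known target, and heme releases it. The targets make glutathione, recycle glutathione and thioredoxin, supply NADPH and break down heme. In neuronal cells, which have a high oxygen demand, these genes are a standard readout of oxidative stress.

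The depleted transcripts were low in the libraries labelled for them. *Exosc3* stood at 15.5% ± 1.90 of the scramble mean in siEXOSC3 (SD, n = 3), and *Ddx1* at 24.4% ± 2.99 in siDDX1 (SD, n = 3), while each was near the scramble level in the other knockdown. Absolute depth is unknown from FPKM, but the step of single fragments among low genes gave depths of 0.827 to 1.20 relative to scramble library 1. That is rough, since 19.9 to 23.9% of low genes lay at the step in the other libraries. Summed FPKM was 893687, 848242 and 738926 in siDDX1 libraries 1 to 3, beside 692933 to 745839 in scramble. In siEXOSC3 it was 703369 to 779283, beside 701163 to 751675 in scramble. The part of these differences in the results below was not tested. Of 14 N2A marker genes 11 reached 1 FPKM in scramble, the exceptions being *Th*, *Nefl* and *Nefm*. Their summed level was 488 to 529 FPKM in scramble and 809 to 831 in siEXOSC3, with 8 increased, against 492 to 537 in siDDX1, with 1 increased, where 16.7% and 5.61% of all genes tested increased, and the part of this shift in the results below was not tested. Of 15 markers of other cell types 4 reached 1 FPKM in scramble (*Cd68*, *Pdgfrb*, *Pecam1* and *Mbp*), with sums of 10.4 to 11.8 FPKM in scramble, 12.3 to 16.1 in siEXOSC3 and 13.1 to 14.2 in siDDX1, with 1 increased in each knockdown, and *Col1a2*, *Aqp4*, *Krt5* and *Krt14* were at 0 in every library. In RNA from whole cultures, fewer cells expressing a gene and less RNA per cell cannot be told apart.

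In scramble cells the 10 genes covered a wide range of levels per transcript length. *Hmox1* was highest at 127 ± 10.5 FPKM, followed by *Txnrd1* at 94.0 ± 3.0 FPKM (mean ± SD, n = 3, siEXOSC3 table). *Gclm* at 53.2 ± 1.56, *Me1* at 51.4 ± 2.66 and *Gsr* at 51.4 ± 2.59 FPKM came next, and the libraries of these neighbours overlapped. *Gclc* at 27.2 ± 1.05 FPKM and *Slc7a11* at 18.4 ± 1.71 FPKM stood apart from each other and from their neighbours. *Nqo1* at 10.1 ± 1.58 and *Srxn1* at 7.76 ± 0.907 FPKM overlapped, and *Osgin1* was barely detected at 1.06 ± 0.403 FPKM. The order was the same in the siDDX1 table, where the same scramble libraries carry slightly different values because each table was scaled on its own.

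**Figure D1:**
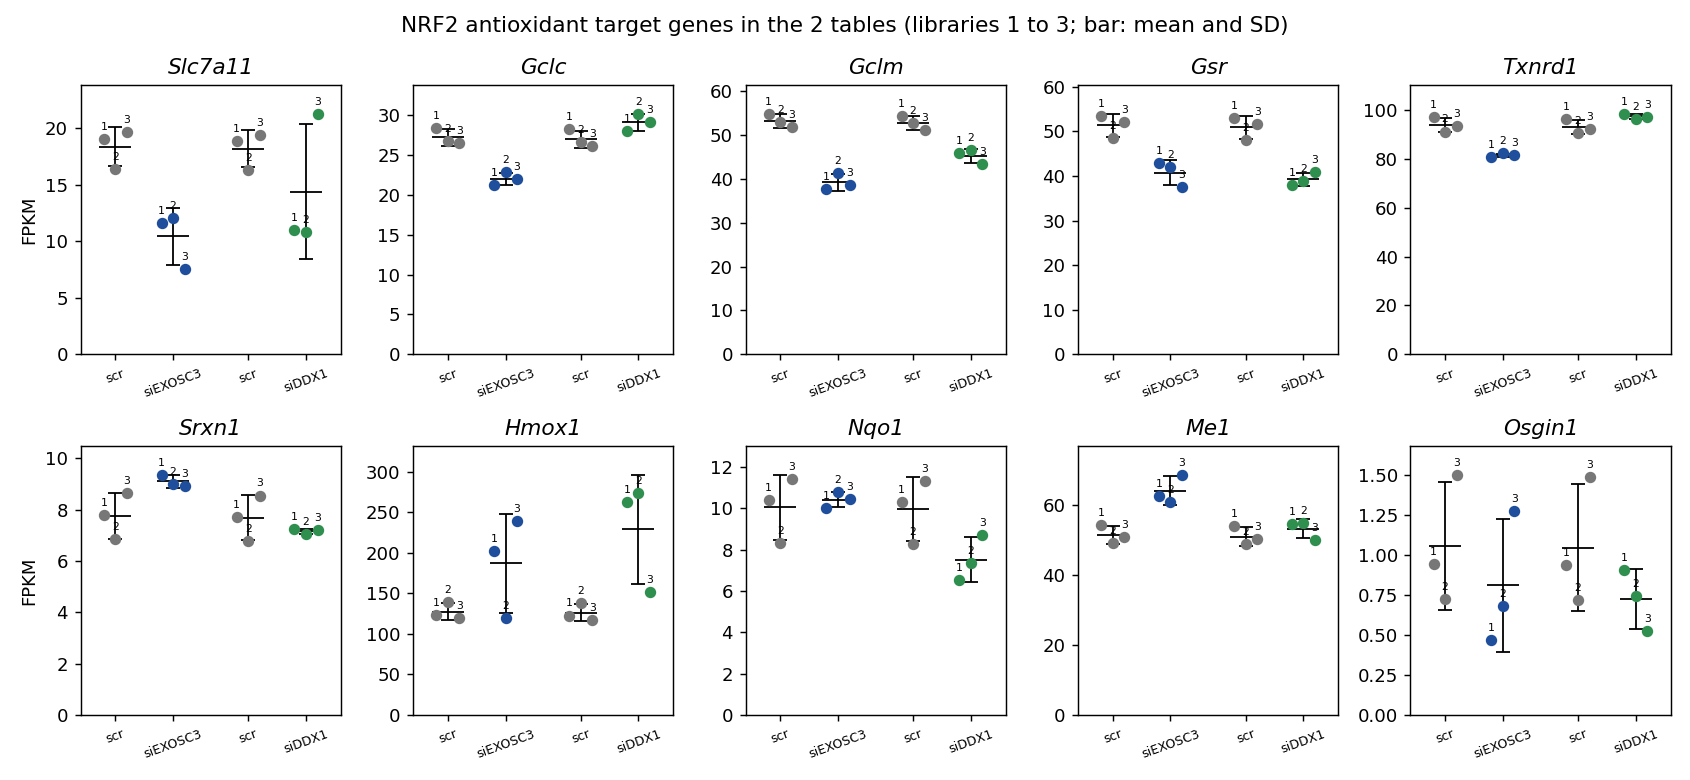
FPKM of each of the 10 NRF2 target genes (y axis, linear, from 0) in every library, with scramble (scr) beside siEXOSC3 and beside siDDX1, each from its own table. Points are libraries 1 to 3 and bars are the mean and SD. The siEXOSC3 points lie below all scramble points for *Slc7a11*, *Gclc*, *Gclm*, *Gsr* and *Txnrd1* and above them for *Me1* and *Srxn1*, and siDDX1 library 3 stands apart for *Slc7a11* and *Hmox1*.

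The promoter sequences show what these genes have in common in their DNA and what they do not. Promoters of 300 bases, from 250 before to 50 after the annotated start, were held for 7 of the 10 genes in the RefSeq table (GRCm38.p6, a later build than the mm9 of the deposited values), in 10 promoters, since *Txnrd1* has 3 and *Me1* has 2. They were searched on both strands for the antioxidant response element core TGACNNNGC and for the AP-1 type motif TGANTCA, which can overlap it. The element core was found in *Gclm*, *Txnrd1*, *Srxn1* and *Me1*, in 4 of 10 promoters, against 12.4% of all 32851 promoters of this length. The AP-1 type motif was found in *Srxn1*, *Osgin1* and *Me1*, in 3 of 10 promoters, against 7.81% of all. *Me1* alone had both motifs overlapping, an arrangement in 0.454% of all promoters. *Slc7a11* and *Nqo1* had neither motif in this window, and *Hmox1*, *Gclc* and *Gsr* had no entry. The matches before the start sites follow with 16 bases on each side, read along the gene's strand, with the matched bases in capitals, to show which motif each gene carries. The capitals mark the element core in *Gclm* and *Txnrd1*, the element core with the AP-1 type motif inside it in *Me1*, and the AP-1 type motif alone in *Osgin1* and in both *Srxn1* lines. In *Gclm* and *Txnrd1* the core lies on the opposite strand, so its reverse complement is in capitals. The match starts 134 bases before the start of *Gclm*, 92 before that of *Txnrd1*, 6 before that of *Me1* and 97 before that of *Osgin1*, and the *Srxn1* matches start 102 and 45 bases before its start. A further *Srxn1* match, to the element core on the opposite strand, starts 28 bases after the start and is not printed. Such a match is a description of the letters and not evidence of binding.
Gclm, chr3:122245407-122245447, plus strand: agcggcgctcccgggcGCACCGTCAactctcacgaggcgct
Txnrd1, chr10:82859098-82859138, plus strand: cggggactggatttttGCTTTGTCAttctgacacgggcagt
Me1, chr9:86695896-86695936, minus strand: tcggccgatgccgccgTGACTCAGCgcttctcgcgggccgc
Osgin1, chr8:119437034-119437072, plus strand: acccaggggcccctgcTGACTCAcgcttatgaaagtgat
Srxn1, chr2:152105406-152105444, plus strand: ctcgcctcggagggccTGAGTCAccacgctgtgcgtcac
Srxn1, chr2:152105463-152105501, plus strand: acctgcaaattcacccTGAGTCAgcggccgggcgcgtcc

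The first comparison asked how the NRF2 targets stood in cells depleted of EXOSC3. *Slc7a11*, *Gclm*, *Gclc*, *Gsr* and *Txnrd1* decreased, while *Me1* increased and *Hmox1*, *Srxn1* and *Nqo1* did not pass the test. Of the 9 members that reached a mean of 1 FPKM, 5 decreased, or 55.6%, where 15.7% of the 11242 genes tested decreased, and 1 increased, or 11.1%, where 16.7% of all genes increased. The calls are adjusted p-values at 0.05 from limma on log2(FPKM + 1), Benjamini-Hochberg adjusted over all genes tested, a scale that understates changes of low genes. In 7 members the siEXOSC3 and scramble libraries did not overlap, 5 below and 2 above, where 49.7% of all genes did not overlap. The median log2 fold change of the members was -0.20, in a range of -0.78 to 0.50, beside a median of -0.01 over all genes. The number decreased depended on single libraries: it was 2 without scramble library 1, 3 without scramble library 3 and 3 without siEXOSC3 library 1. Over all genes the number decreased also fell in those fits, from 1767 to 583, 806 and 867. The number of members increased was 0 without scramble library 2 or 3 and 2 without siEXOSC3 library 2, where all genes increased numbered 1324, 1186 and 2379 in place of 1877.

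The second comparison asked the same of cells depleted of DDX1. *Hmox1* increased, *Gsr* and *Gclm* decreased, and 6 of the 9 members tested did not pass the test. The share decreased was 22.2%, where 5.03% of 11104 genes tested decreased, and the share increased was 11.1%, where 5.61% of all genes increased. In 3 members the groups did not overlap, where 34.7% of all genes did not overlap. The median log2 fold change was -0.08, in a range of -0.38 to 0.81, beside a median of -0.00059 over all genes. These counts rested on single libraries. Without siDDX1 library 3, 4 members decreased and 1 increased. Without scramble library 1, scramble library 3 or siDDX1 library 2 no member was called in either direction, and without scramble library 2 or siDDX1 library 1 only *Gsr* was. The calls over all genes moved the same way, from 623 increased and 559 decreased to 1818 and 1706 without siDDX1 library 3, and to 95 to 286 and 58 to 234 without any other single library. Labels do not say whether the libraries were separate cultures, although the study's methods describe biological triplicates.

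**Figure D2:**
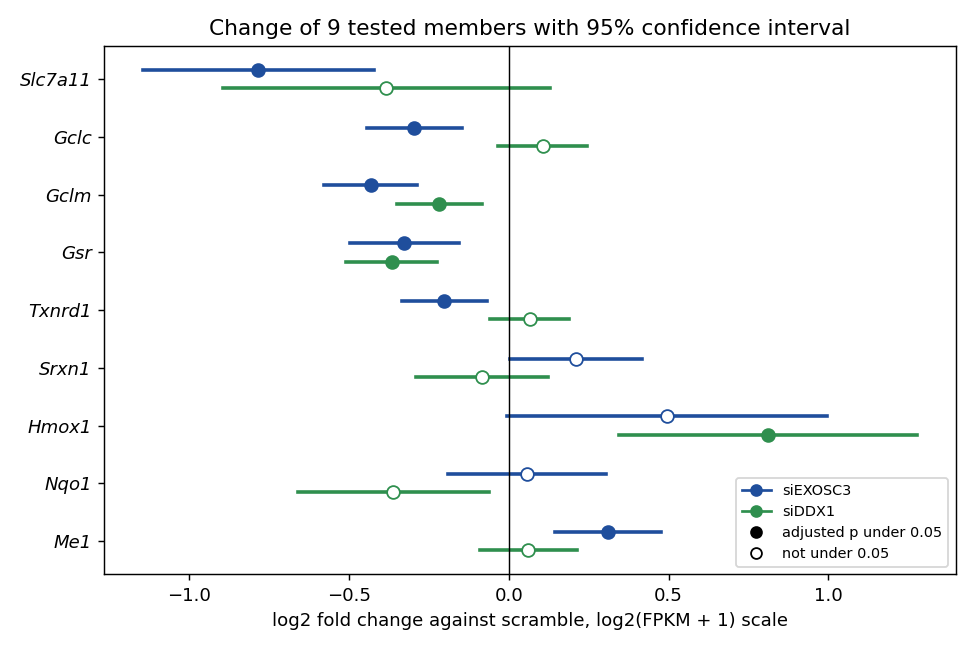
Log2 fold change on the log2(FPKM + 1) scale (x axis) of the 9 tested NRF2 target genes in siEXOSC3 and in siDDX1, each against the scramble libraries of its own table, with 95% confidence intervals as bars. Filled points passed the adjusted p of 0.05. *Slc7a11* lies lowest at -0.78 in siEXOSC3 and *Hmox1* highest at 0.81 in siDDX1.

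Glutathione synthesis begins with cystine uptake. *Slc7a11* (chr3:50168858-50247535, minus strand, mm9) encodes xCT, the cystine and glutamate exchanger. Its level in the scramble libraries was 19.1, 16.4 and 19.6 FPKM, against 11.6, 12.1 and 7.54 FPKM in siEXOSC3. All siEXOSC3 libraries lay below all scramble libraries, and library 3 was the lowest. The mean fell from 18.4 ± 1.71 to 10.4 ± 2.51 FPKM (SD, n = 3), or to 56.8% ± 13.7 of scramble. The log2 fold change was -0.78 (SE 0.158, 95% confidence interval -1.14 to -0.42, limma adjusted p = 0.00877). This was the largest decrease among the members, and it passed the threshold under all 14 alternative settings, with adjusted p from 0.00245 to 0.0426. In the siDDX1 table *Slc7a11* was at 18.9, 16.3 and 19.4 FPKM in scramble and at 11, 10.8 and 21.3 FPKM in siDDX1. Here siDDX1 libraries 1 and 2 lay below every scramble library and library 3 lay above them all. The log2 fold change of -0.38 (SE 0.223, 95% confidence interval -0.90 to 0.13) did not pass the test, with a limma adjusted p of 0.283. Without siDDX1 library 3 it was -0.68 with an adjusted p of 6.76e-04, without siDDX1 library 1 it was -0.24 (adjusted p = 0.580), without siDDX1 library 2 it was -0.23 (adjusted p = 0.593), and over the alternatives the adjusted p ran from 6.76e-04 to 0.593.

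Glutamate-cysteine ligase, the rate-limiting enzyme of glutathione synthesis, consists of a catalytic subunit, GCLC, and a modifier subunit, GCLM, that raises its activity. *Gclm* (chr3:121948475-121972902, plus strand, mm9), whose promoter carries the element core shown above, was at 54.9, 53.1 and 51.7 FPKM in scramble and at 37.7, 41.2 and 38.7 FPKM in siEXOSC3. The groups were well separated. *Gclm* fell to 73.6% ± 3.47 of scramble (SD, n = 3), a log2 fold change of -0.43 (SE 0.0639, limma adjusted p = 0.00304), and passed under all 14 alternatives, with adjusted p from 0.00112 to 0.0226. In siDDX1 the values were 45.8, 46.5 and 43.3 FPKM, against 54.4, 52.7 and 51.1 FPKM in the scramble libraries. These were again all below scramble but by less, at 85.7% ± 3.19 (SD, n = 3) and a log2 fold change of -0.22 (SE 0.0580, limma adjusted p = 0.0496). This call lay at the threshold. It was lost without scramble library 1 (adjusted p = 0.186), 2 (0.128) or 3 (0.118) and without siDDX1 library 1 (0.1004) or 2 (0.114), and the adjusted p ran from 0.0257 to 0.186 over the alternatives. *Gclm* overlaps the gene model *Gm17494* on the other strand, and the library kit did not keep strand, so their reads cannot be told apart.

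*Gclc* (chr9:77602342-77642292, plus strand, mm9), the catalytic subunit, did not follow the modifier subunit in both knockdowns. It was at 28.4, 26.8 and 26.5 FPKM in scramble and at 21.3, 22.8 and 22 FPKM in siEXOSC3. The groups did not overlap, with siEXOSC3 at 80.8% ± 2.90 of scramble (SD, n = 3). The log2 fold change was -0.30 (SE 0.0649, limma adjusted p = 0.0117). The call was lost without scramble library 1 (-0.27, adjusted p = 0.0652) or siEXOSC3 library 1 (-0.27, adjusted p = 0.0541), and the adjusted p ran from 0.00671 to 0.0652 over the alternatives. In siDDX1 *Gclc* was at 28, 30.2 and 29.2 FPKM beside 28.2, 26.6 and 26.2 FPKM in scramble, which overlap. Its mean was 108% ± 3.92 of scramble, and the log2 fold change of 0.11 (95% confidence interval -0.03 to 0.25) did not pass the test, with a limma adjusted p of 0.280.

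*Gsr* (chr8:34762995-34808635, plus strand, mm9) encodes glutathione reductase, which returns oxidised glutathione to its reduced form with NADPH. Together with *Gclm* it was called decreased in both knockdowns, which share their scramble libraries. In scramble it was at 53.4, 48.5 and 52.2 FPKM, and in siEXOSC3 at 42.9, 41.9 and 37.5 FPKM. Against 53.0, 48.1 and 51.6 FPKM in the scramble libraries of the other table, siDDX1 stood at 38.1, 38.8 and 40.9 FPKM. Every knockdown library lay below every scramble library. In siEXOSC3 *Gsr* was at 79.4% ± 5.61 of scramble (SD, n = 3) and its log2 fold change was -0.33 (SE 0.0746, limma adjusted p = 0.0135). In siDDX1 it was at 77.1% ± 2.86 (SD, n = 3) and its log2 fold change was -0.37 (SE 0.0622, limma adjusted p = 0.0129). The siEXOSC3 call was lost without scramble library 1 (adjusted p = 0.0661) or 3 (0.0541), with a range of 0.00910 to 0.0661 over the alternatives. The siDDX1 call was lost without scramble library 1 (0.0757), scramble library 3 (0.0663) or siDDX1 library 2 (0.0551), with a range of 0.00202 to 0.0757. A small RNA gene, *SNORA48*, lies within *Gsr* on the same strand.

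Thioredoxin reductase 1, the product of *Txnrd1* (chr10:82296696-82360469, plus strand, mm9), keeps cytosolic thioredoxin reduced. *Txnrd1* was at 97.2, 91.2 and 93.5 FPKM in scramble and at 81.0, 82.2 and 81.5 FPKM in siEXOSC3. The decrease was small but the siEXOSC3 libraries were close together, at 86.8% ± 0.673 of scramble (SD, n = 3). Its log2 fold change was -0.20 (SE 0.0583, limma adjusted p = 0.0308). The call was lost without scramble library 1 (adjusted p = 0.138), 2 (0.0667) or 3 (0.0821) and without siEXOSC3 library 1 (0.102), with a range of 0.0250 to 0.138 over the alternatives. In siDDX1 *Txnrd1* was at 98.5, 96.4 and 97.3 FPKM beside 96.4, 90.5 and 92.4 FPKM in scramble. The groups touched at their edges, the log2 fold change was 0.06 (95% confidence interval -0.06 to 0.19), and it did not pass the test, with a limma adjusted p of 0.456.

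*Srxn1* (chr2:151931252-151937112, plus strand, mm9) encodes sulfiredoxin, which repairs overoxidised peroxiredoxins. Its promoter had the most motif matches among the promoters of the members. *Srxn1* was at 7.79, 6.84 and 8.65 FPKM in scramble and at 9.37, 9.01 and 8.92 FPKM in siEXOSC3. All siEXOSC3 libraries lay above scramble, but the log2 fold change of 0.21 (SE 0.0909, 95% confidence interval 0.002 to 0.42) did not pass the test, with a limma adjusted p of 0.107 and a range of 0.0707 to 0.307 over the alternatives. In siDDX1 it was at 7.24, 7.06 and 7.20 FPKM, within the scramble values of 7.73, 6.79 and 8.55 FPKM. Its log2 fold change there was -0.08 (95% confidence interval -0.29 to 0.12, limma adjusted p = 0.564).

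Heme oxygenase 1, encoded by *Hmox1* (chr8:77617490-77624495, plus strand, mm9), breaks heme down to biliverdin, iron and carbon monoxide. In the siEXOSC3 table *Hmox1* was at 124, 139 and 119 FPKM in scramble and at 202, 119 and 239 FPKM in siEXOSC3. Libraries 1 and 3 of siEXOSC3 lay far above scramble and library 2 lay among the scramble libraries. The mean was 187 ± 61.4 against 127 ± 10.5 FPKM (SD, n = 3), and the log2 fold change of 0.50 (SE 0.219, 95% confidence interval -0.005 to 1.00) did not pass the test, with a limma adjusted p of 0.113. Without siEXOSC3 library 2 it was 0.79 with an adjusted p of 7.30e-04, without siEXOSC3 library 3 it was 0.29 with an adjusted p of 0.255, and the adjusted p ran from 7.30e-04 to 0.277 over the alternatives.

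In siDDX1 *Hmox1* was at 262, 274 and 151 FPKM beside 122.7, 138 and 118 FPKM in scramble. Every siDDX1 library lay above scramble, libraries 1 and 2 by far and library 3 only just. The mean rose from 126 ± 10.6 to 229 ± 67.6 FPKM, or to 182% ± 53.6 of scramble (SD, n = 3). Its log2 fold change was 0.81 (SE 0.204, limma adjusted p = 0.0427). On the log2(FPKM + 1) scale this was the largest change of any member in either table, but with a pseudocount of 0.1 (0.81) or quantile normalisation (0.73) it was smaller than that of *Slc7a11* in siEXOSC3 (-0.84 and -0.76). The *Hmox1* call was lost without scramble library 1 (adjusted p = 0.145), 2 (0.0811) or 3 (0.146) and without siDDX1 library 1 (0.124) or 2 (0.127). Without siDDX1 library 3 the log2 fold change was 1.08, and the adjusted p ran from 8.48e-05 to 0.146 over the alternatives. For this gene and for the other members whose groups did not overlap, the exact two-sided permutation test gave p = 0.1, the smallest that 3 libraries against 3 allow.

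*Hmox1* and *Slc7a11* varied between libraries of 1 knockdown more than the other tested members did, and in opposite directions. In siEXOSC3 library 3, *Hmox1* was at 188% and *Slc7a11* at 41.1% of the scramble mean. In library 2 *Hmox1* was at 93.8% and *Slc7a11* at 65.8%, and library 1 lay between for *Hmox1* at 159% with *Slc7a11* at 63.4%. The same libraries kept 13.6%, 17.4% and 15.5% of the *Exosc3* transcript, in the order 3, 2 and 1, so the library with the most *Exosc3* left had the lowest *Hmox1*. In siDDX1 libraries 1 and 2 *Hmox1* was at 208% and 217% and *Slc7a11* at 60.5% and 59.5%, with 22.4% and 22.9% of *Ddx1* left. Library 3 had *Hmox1* at 120%, *Slc7a11* at 117% and the most *Ddx1* left, at 27.8%. With 3 libraries in a group this is a description of single libraries, and the part of the depth of knockdown in these values was not tested.

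**Figure D3:**
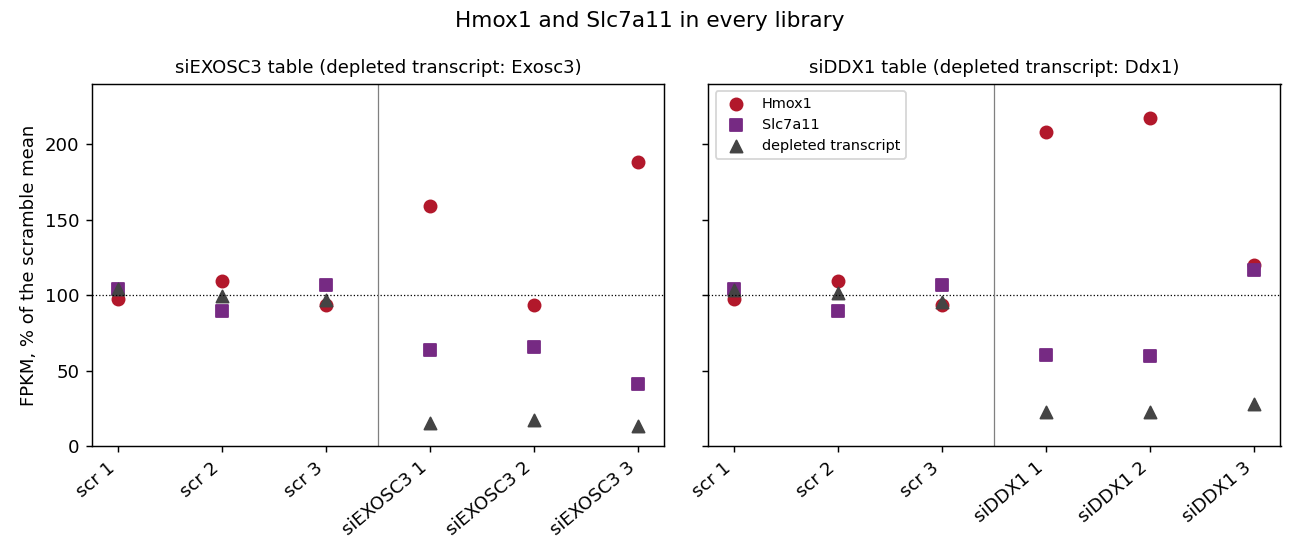
Percent of the scramble mean of the same table (y axis, linear) in each library (x axis) for *Hmox1*, *Slc7a11* and the depleted transcript. The left panel holds scramble and siEXOSC3 libraries with *Exosc3*, and the right panel scramble and siDDX1 libraries with *Ddx1*. In the knockdown libraries *Hmox1* lies above and *Slc7a11* below all scramble libraries, with few exceptions. These are siEXOSC3 library 2, with *Hmox1* at 93.8%, and siDDX1 library 3, with *Slc7a11* at 117%.

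*Me1* (chr9:86474970-86589947, minus strand, mm9), the cytosolic malic enzyme that makes NADPH, was at 54.3, 49.1 and 50.8 FPKM in scramble and at 62.6, 60.7 and 68.6 FPKM in siEXOSC3. It was the only tested member that increased there, to 124% ± 8.07 of scramble (SD, n = 3). Its log2 fold change was 0.31 (SE 0.0722, limma adjusted p = 0.0145). The call was lost without scramble library 2 (adjusted p = 0.0589) or 3 (0.0553), with a range of 0.00665 to 0.0589 over the alternatives. In siDDX1 *Me1* was at 54.6, 54.9 and 49.99 FPKM, overlapping scramble at 53.9, 48.7 and 50.2 FPKM, with a log2 fold change of 0.06 (95% confidence interval -0.09 to 0.21, limma adjusted p = 0.567). *Me1* overlaps *A330041J22Rik* on the other strand, whose reads could not be separated.

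*Nqo1* (chr8:109912125-109927106, minus strand, mm9) encodes a quinone reductase and is among the most used NRF2 reporters. It was at 10.4, 8.32 and 11.4 FPKM in scramble and at 10.0, 10.8 and 10.5 FPKM in siEXOSC3, with no separation between them. The log2 fold change was 0.06 (95% confidence interval -0.19 to 0.30, limma adjusted p = 0.705), and without scramble library 2 its sign turned, to -0.06 with an adjusted p of 0.642, in a range of 0.347 to 0.830. In siDDX1 it was at 6.51, 7.35 and 8.69 FPKM beside 10.3, 8.26 and 11.3 FPKM. Libraries 1 and 2 of siDDX1 lay below scramble and library 3 above its lowest library. The log2 fold change of -0.36 (SE 0.130, 95% confidence interval -0.66 to -0.06) did not pass the test, with a limma adjusted p of 0.108. Without siDDX1 library 3 it was -0.46 with an adjusted p of 0.0158, and the range over the alternatives was 0.0158 to 0.302. *Osgin1* (chr8:121958024-121970156, plus strand, mm9), an oxidative stress induced growth inhibitor, was at 0.946, 0.723 and 1.5 FPKM in scramble and at 0.472, 0.682 and 1.28 FPKM in siEXOSC3. In siDDX1 it was at 0.906, 0.744 and 0.527 FPKM, and with means under 1 FPKM over the 6 libraries of each table it was not tested.

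Among the regulators of the pathway, *Nfe2l2*, which encodes NRF2 itself, was at 27.3 ± 0.664 FPKM in scramble and 29.6 ± 2.15 in siEXOSC3 (SD, n = 3), a log2 fold change of 0.11 (95% confidence interval -0.05 to 0.27, limma adjusted p = 0.262). In siDDX1 it was at 29.2 ± 0.853 against 27.0 ± 0.719 FPKM, also 0.11 on the log2 scale (95% confidence interval -0.02 to 0.24, limma adjusted p = 0.245). In both cases each knockdown library lay above each scramble library. *Keap1* had log2 fold changes of -0.16 (limma adjusted p = 0.387) and -0.03 (0.841) in siEXOSC3 and siDDX1. *Bach1*, the repressor, was at 9.67, 10.6 and 8.55 FPKM in scramble and at 7.90, 5.79 and 8.28 FPKM in siEXOSC3, all below scramble. Its log2 fold change of -0.36 (95% confidence interval -0.66 to -0.06) did not pass the test, with a limma adjusted p of 0.0654. In siDDX1 *Bach1* was at 11.6, 11.1 and 6.01 FPKM, so that library 3 stood apart here too, in the library with the lowest *Hmox1* of that group. Of 15 regulators tested, *Cul3* alone decreased in siEXOSC3 (log2 fold change -0.19, limma adjusted p = 0.0496) and *Gsk3b*, a kinase that marks NRF2 for degradation, alone increased in siDDX1 (0.28, adjusted p = 0.0259). Each is 6.67% of the list, where 15.7% of all genes decreased in siEXOSC3 and 5.61% increased in siDDX1. The *Cul3* call was lost without each library in turn except siEXOSC3 library 2, with adjusted p up to 0.185. The *Gsk3b* call was lost without each library except siDDX1 library 3, with adjusted p up to 0.108.

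Of 23 other genes described as NRF2 targets and tested in siEXOSC3, 7 increased and 2 decreased, with a median log2 fold change of 0.12. These are 30.4% and 8.70% of the list, where 16.7% and 15.7% of all genes increased and decreased. *Gstm1*, a glutathione transferase, was at 6.72, 6.12 and 6.40 FPKM in scramble and at 16.2, 13.2 and 26.0 FPKM in siEXOSC3, a log2 fold change of 1.34 (SE 0.201, limma adjusted p = 0.00319). Reads of this multigene family can be shared with near-identical copies, so its level is uncertain. *Ephx1*, a microsomal epoxide hydrolase, was at 37.0, 44.3 and 35.9 FPKM in scramble and at 87.8, 73.4 and 120 FPKM in siEXOSC3 (log2 fold change 1.22, SE 0.165, limma adjusted p = 0.00233). In both genes every siEXOSC3 library was far above scramble, with library 3 highest and library 2 lowest, the order seen for *Hmox1*. *Aldh3a1*, an aldehyde dehydrogenase, increased by 0.77 (adjusted p = 0.00299). *Pgd* and *Taldo1*, enzymes of the pentose phosphate pathway, decreased by 0.46 (adjusted p = 0.00594) and 0.22 (adjusted p = 0.0471) on the log2 scale. The list's other genes of that pathway, *G6pdx* and *Tkt*, named after their values were seen, did not pass the test, with log2 fold changes of 0.02 (adjusted p = 0.884) and 0.05 (adjusted p = 0.525). The *Taldo1* call was lost without each library except siEXOSC3 library 2, with adjusted p up to 0.158, and without scramble library 1 the list gave 4 increased and 1 decreased, beside 1027 and 583 of all genes.

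In siDDX1, 3 of 22 other targets increased and 1 decreased, with a median of 0.09. These are 13.6% and 4.55% of the list, where 5.61% and 5.03% of all genes increased and decreased. *Abcc1*, an exporter of glutathione conjugates, rose from 16.3 to 21.4 FPKM (log2 fold change 0.37, limma adjusted p = 0.0159), and *Aldh3a1* from 1.17 to 1.89 FPKM (0.41, adjusted p = 0.0477). *Fth1*, the ferritin heavy chain, rose from 517 to 644 FPKM (0.32, adjusted p = 0.0307), a value that its pseudogene copies make uncertain. *Ugdh*, which makes UDP-glucuronate for conjugation, fell from 19.4 to 13.4 FPKM (-0.50, adjusted p = 0.0138). All 4 calls were lost without scramble library 1 or 3, and 9 of the list increased without siDDX1 library 3, where 1818 of all genes increased in place of 623. Without scramble library 2 the *Aldh3a1* and *Fth1* calls were lost, and without siDDX1 library 1 or 2 the *Abcc1*, *Aldh3a1* and *Fth1* calls were. The highest adjusted p in these fits was 0.0900 for *Abcc1*, 0.155 for *Aldh3a1*, 0.144 for *Fth1* and 0.0793 for *Ugdh*.

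The other glutathione and thioredoxin genes were mixed. In siEXOSC3, 4 of 23 increased and 1 decreased, with a median log2 fold change of 0.01, and in siDDX1, 3 of 22 increased, with a median of 0.12. The shares increased were 17.4% and 13.6%, where 16.7% and 5.61% of all genes increased, so the siEXOSC3 share was near that of all genes, and the share decreased in siEXOSC3 was 4.35%, where 15.7% of all genes decreased. *Prdx5*, a peroxiredoxin of mitochondria and peroxisomes, was at 30.7, 28.3 and 30.6 FPKM in scramble and at 53.6, 45.1 and 58.6 FPKM in siEXOSC3. Against the scramble libraries of its own table it was at 45.1, 46.0 and 42.7 FPKM in siDDX1, and all knockdown libraries were above scramble. Its log2 fold change was 0.78 (SE 0.0974, limma adjusted p = 0.00169) in siEXOSC3 and 0.58 (SE 0.0619, limma adjusted p = 0.00407) in siDDX1, and both calls held without any 1 library. *Glrx2*, a mitochondrial glutaredoxin, increased by 0.50 (adjusted p = 0.00264) and 0.38 (adjusted p = 0.0175), and *Glrx*, its cytosolic relative, increased by 0.66 (adjusted p = 0.00272) in siEXOSC3 with a log2 fold change of -0.07 (adjusted p = 0.749) in siDDX1. *Txnip*, which binds and inhibits thioredoxin, decreased by 0.42 (adjusted p = 0.0126) in siEXOSC3, a call lost without scramble library 1 (adjusted p = 0.0597). *Slc3a2*, the heavy chain that pairs with xCT, did not follow *Slc7a11*: its log2 fold change was -0.06 (adjusted p = 0.524) in siEXOSC3 and it increased by 0.26 (adjusted p = 0.0326) in siDDX1. The siDDX1 calls for *Slc3a2* and *Glrx2* were lost without each library except siDDX1 library 3, with adjusted p up to 0.139 and 0.0802. Without siDDX1 library 3, 7 of the list increased and 1 decreased, beside 1818 and 1706 of all genes, and without scramble library 1, 1 increased, beside 100 of all genes.

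Heme and iron genes were set beside *Hmox1*. Of 15 tested, 2 increased and 1 decreased in siEXOSC3, and 1 increased and 2 decreased in siDDX1, with medians of -0.07 and -0.04. The shares increased and decreased were 13.3% and 6.67% in siEXOSC3, where 16.7% and 15.7% of all genes did so, and 6.67% and 13.3% in siDDX1, where 5.61% and 5.03% did. *Flvcr1*, a heme exporter listed in the tables as *Mfsd7b*, fell from 25.0 to 16.9 FPKM in siEXOSC3 (log2 fold change -0.56, limma adjusted p = 0.0222) and from 24.8 to 17.9 FPKM in siDDX1 (-0.44, adjusted p = 0.0128). *Tfrc*, the transferrin receptor, fell from 61.3 to 40.8 FPKM in siDDX1 (-0.58, adjusted p = 0.0114). *Cpox*, of heme synthesis, increased by 0.30 (adjusted p = 0.0162) in siDDX1, and *Urod*, of the same pathway, by 0.32 (adjusted p = 0.0424) in siEXOSC3. *Hmox2*, the constitutive heme oxygenase, increased by 0.23 (adjusted p = 0.0356) in siEXOSC3. All of these calls were lost without scramble library 1 or 3. The *Urod*, *Hmox2* and *Cpox* calls were also lost without scramble library 2 and without library 1 of their knockdown, the siEXOSC3 *Flvcr1* call without siEXOSC3 library 1, the *Urod* and *Hmox2* calls without siEXOSC3 library 3, and the siDDX1 *Flvcr1* and *Cpox* calls without siDDX1 library 2. The highest adjusted p in these fits was 0.145 for *Urod*, 0.124 for *Hmox2*, 0.0789 for *Cpox*, 0.0666 for *Tfrc*, and for *Flvcr1* 0.0858 in siEXOSC3 and 0.0680 in siDDX1. Without siDDX1 library 3, 2 of the list increased and 5 decreased, beside 1818 and 1706 of all genes.

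**Figure D4:**
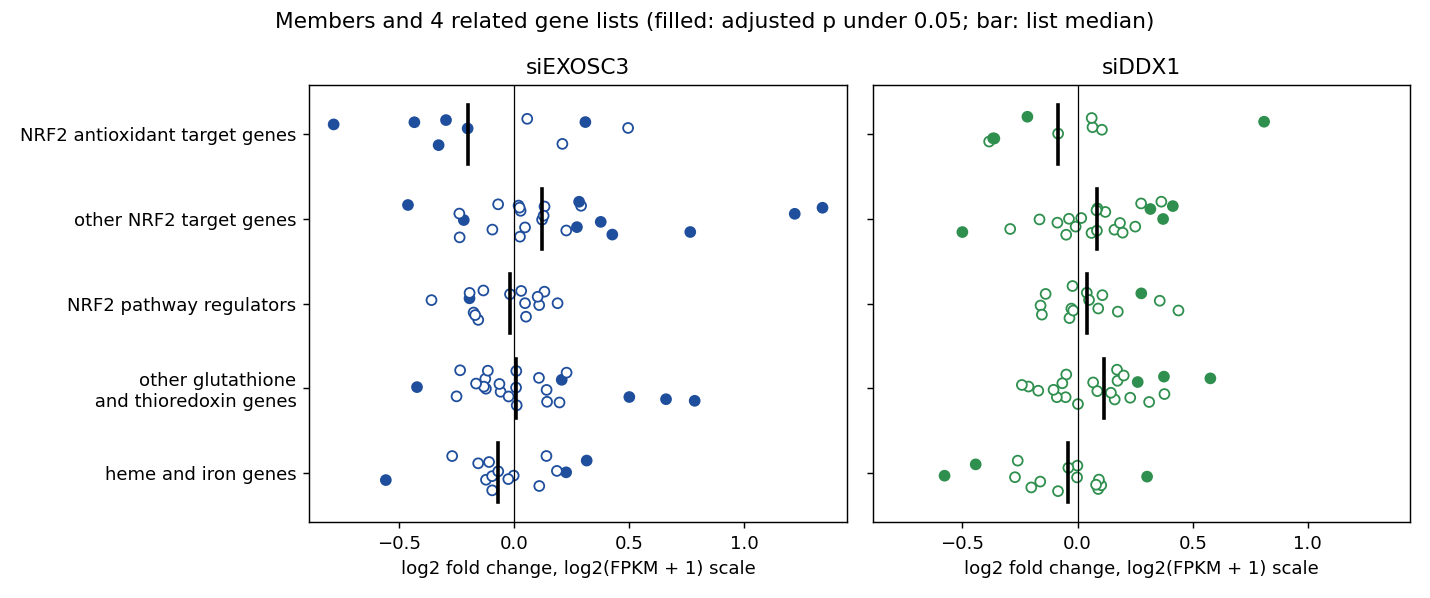
Log2 fold change on the log2(FPKM + 1) scale (x axis) of every tested gene of the 10 NRF2 target genes and of 4 further lists (y axis), in siEXOSC3 and siDDX1 against scramble. Each point is a gene, filled where it passed the adjusted p of 0.05, and the bar is the median of the list. The medians lie between -0.20 and 0.12, with the members' median lowest in each knockdown.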

How the data were processed

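RNA-seq of rRNA-depleted RNA from 9 N2A libraries was used, 3 per siRNA, grouped by the labels. The authors aligned reads with TopHat2 version 2.1.0 to mm9 and ran Cuffdiff version 2.2.1 on each knockdown against scramble, per the paper and the submitters' processing notes. They deposited FPKM per gene and library in 2 tables, so values are already normalised for length and depth, counts are not held, and no count model or counting interval was used. The annotation and library normalisation given to Cuffdiff are not given in the sources used here. Because the tables were scaled separately, each test stayed within a table.

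From the deposited FPKM, log2(FPKM + 1) of genes with a mean of at least 1 FPKM over the 6 libraries was fitted in R version 4.3.3 by limma, version 3.58.1 (intensity trend, no covariates, two-sided, Benjamini-Hochberg over all genes tested, threshold 0.05). The procedure was first tested on simulated data. Labels give no separate cultures for the libraries, so p-values measure the spread between these libraries. Alternatives were a pseudocount of 0.1, no filter, a mean of at least 5 FPKM, median centring, quantile normalisation, no trend, a replicate block, a threshold of 0.01, and leaving out each library.

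The members and lists were chosen with earlier results of these data known. Named beside the 10 members were *Exosc3*, *Ddx1*, *Nfe2l2*, *Keap1* and *Bach1*, and from each of 4 lists and each knockdown up to 3 called genes with the largest rise and 3 with the largest fall. Gene positions came from GENCODE vM1 on NCBIM37, the sequence of mm9, and promoters from RefSeq. Figures were drawn with matplotlib version 3.10.9.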

Additional observations from a re-analysis of the deposited data

Results flagged for a closer look

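In 3 members every siEXOSC3 library lay on the opposite side of the scramble mean from every siDDX1 library, and these differences between the knockdowns were not tested. *Gclc* had a log2 fold change of -0.30 in siEXOSC3, with libraries at 78.0 to 83.8% of the scramble mean, and 0.11 in siDDX1, with libraries at 104 to 112%. *Txnrd1* had -0.20 in siEXOSC3, at 86.2 to 87.5%, and 0.06 in siDDX1, at 104 to 106%. *Srxn1* went the other way, with 0.21 in siEXOSC3, at 115 to 121%, and -0.08 in siDDX1, at 91.8 to 94.2%. Only the siEXOSC3 values of *Gclc* and *Txnrd1* passed the limma test.

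The same held, also untested, for *Cpox*, *Taldo1* and *Txnip* among the named genes of the other lists, and for further genes of those lists that are not named. *Cpox* had -0.09 in siEXOSC3 and 0.30 in siDDX1. *Taldo1* had -0.22 and 0.16, and *Txnip* had -0.42 and 0.20, in the same order.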

How the results depend on the processing

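Of the members called in either knockdown, *Slc7a11* and *Gclm* in siEXOSC3 kept their call under all 14 alternatives. *Nqo1*, called in neither knockdown, turned sign in siEXOSC3 without scramble library 2, in a range of -0.060 to 0.15 over the libraries left out. Depth is unknown, groups of 3 limit the tests, and the causes of the moves below were not tested. Only the stricter threshold lowers a count by construction. Same-numbered libraries did not deviate together in siEXOSC3 (correlations of -0.310 to 0.035). In siDDX1 those numbered 2 and 3 did (0.379 and 0.372) and those numbered 1 did not (-0.012). With groups of 3, each centred on its own mean, these values cannot decide whether the numbers pair the libraries. With the replicate block, in siEXOSC3 1059 genes decreased in place of 1767, regulators decreased 0, other targets decreased 1 and heme genes increased 0, and in siDDX1 1085 genes increased in place of 623 and regulators increased 2.

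For siEXOSC3, other targets decreased numbered 1 with no filter, 4 with quantile normalisation, 1 with median centring and 1 without the trend. Heme genes increased numbered 1 with no filter and 0 without the trend. Regulators decreased numbered 0 with median centring or without the trend. At the 0.01 threshold 869 genes increased and 480 decreased, the members gave 0 and 2, the other targets 4 and 1, heme genes 0 and 0, and regulators and glutathione genes decreased 0. For siDDX1, 387 genes increased and 330 decreased with no filter, with members at 0 and 1. Members decreased numbered 1 with a pseudocount of 0.1 and with median centring, and members gave 0 and 1 without the trend. Other targets increased numbered 1 with quantile normalisation. At 0.01 100 genes increased and 83 decreased, with 0 and 0 members, 0 and 0 other targets, 0 and 0 heme genes, 0 regulators increased and 1 glutathione gene increased. The *Gclm* call in siDDX1 was lost with a pseudocount of 0.1 (adjusted p = 0.0503), no filter (0.0578), median centring (0.0688) and no trend (0.0763), the *Hmox1* call there with no filter (0.101) and no trend (0.0553), and the *Txnrd1* call in siEXOSC3 without the trend (0.0501) and with the block (0.0849), all by limma.

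Leaving out each library in turn gave, for siEXOSC3, 1027 to 2379 genes increased and 583 to 2508 decreased, members 0 to 2 increased and 2 to 5 decreased, regulators 0 to 1 and 0 to 2, other targets 4 to 9 and 1 to 3, glutathione genes 3 to 4 and 0 to 2, and heme genes 0 to 3 and 0 to 2. For siDDX1 it gave 95 to 1818 and 58 to 1706 genes, members 0 to 1 and 0 to 4, regulators 0 to 4 and 0 to 1, other targets 0 to 9 and 0 to 1, glutathione genes 1 to 7 and 0 to 1, and heme genes 0 to 2 and 0 to 5.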
